A study of Mus musculus with 4 samples.

Results

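Rbp4, Ttr and Gc encode 3 proteins that carry small hydrophobic molecules in blood, and their RNA was followed through the hormone-producing cells of mouse islets. They are 3 of the 21594 gene symbols in the count matrices. They were picked by symbol, for their difference between Atf4 mutant and control beta cells and for their levels by cell type. The beta cell difference and the levels by cell type are therefore given as a description with no test. The mutant against control comparison was tested only in the other 3 hormone classes.

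RBP4 carries retinol from the liver to other tissues, and in plasma it travels bound to transthyretin, the product of Ttr, which also carries thyroxine. Gc encodes the vitamin D-binding protein, which carries vitamin D metabolites and binds free actin. The liver is the main source of all of them in blood, and islet endocrine cells also express them.

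The series measured single-cell RNA in dissociated islets of 2-month-old mice, to ask what the stress-response transcription factor Atf4 does in beta cells. The 2 mutant pools carried floxed Atf4 on both alleles with Ins1Cre (Atf4F/F; Ins1Cre), a Cre recombinase driven by the insulin gene Ins1, and the 2 control pools carried Atf4F/F without Cre. All mice thus had floxed Atf4, and no group has Cre without it. Each pool held islets of 2 males and 2 females by the design text, and of 3 to 4 mice by the protocol. No mouse received a treatment, tdT+ and tdT- cells shared a library, and 10% human K562 cells (a leukemia line) had been mixed in. The matrices held 13706563 to 17655893 counted molecules (UMIs) per pool, and 6995 of 11114 barcodes passed at least 500 genes and under 20% mitochondrial UMIs. Between 14 and 35 kept barcodes were common to any given pair of libraries, 162 in all.

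Cells were put in classes by their hormone UMIs. Alpha, delta and PP cells had glucagon (Gcg), somatostatin (Sst) or pancreatic polypeptide (Ppy) at 2% of UMIs or more, above insulin and at 3 times or more each of the other 2. Beta cells had insulin at 10% or more and each other hormone under 1%. This gave 3985 beta, 767 alpha, 288 delta and 101 PP cells, with 14 to 38 PP cells per pool. A further 1667 cells fell in no class, and 1399 of them had insulin at 10% or more together with another hormone at 1% or more. The alpha markers other than Gcg were all detected in alpha cells, the beta markers in beta cells and the delta markers in delta cells. Aqp3 of the PP list was at 0 in PP cells. All alpha markers were also detected in beta, delta and PP cells, and all delta markers in alpha and beta cells. Detection alone therefore does not separate the classes. Endothelial (110) and macrophage (77) cells were kept as types that should lack the 3 genes.

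Levels below are UMIs of the gene per 1000000 UMIs of all cells of a class and pool (CPM), in the order mutant 1, mutant 2, control 1 and control 2. Without hormone genes, the beta markers summed to 3061 to 3985 CPM in beta cells and at most 190 in alpha, delta and PP cells. The alpha markers were at 3988 to 4717 CPM in alpha, 3562 to 4520 in PP and at most 2223 in beta and delta cells. The PP markers were at 757 to 984 CPM in PP, 720 to 813 in delta and at most 195 in alpha and beta cells. The delta markers were 1190 to 1409 CPM in delta, 1356 to 2847 in macrophage and at most 635 in alpha, beta and PP cells. Atf4 itself stood at 3.06, 120, 336 and 370 CPM in beta cells. Mutant 1 was near 0 and mutant 2 kept part of the control level. The sources used here do not give the floxed exons.

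Rbp4 and Gc, like Ttr, are protein-coding genes, and none overlaps another annotated gene (GRCm38, GENCODE vM21). Rbp4 lies at chr19:38116629-38125281 and Gc at chr5:89417522-89457898, both on the minus strand. RefSeq promoters (GRCm38.p6, 250 bases before the start site to 50 after it) are printed for Rbp4 and Gc, since the beta cell levels of these genes differed most between Atf4 mutants and controls. The promoters are written 5′ to 3′ on the gene's strand with matched motifs in capitals.
Gc, chr5:89457849-89458148: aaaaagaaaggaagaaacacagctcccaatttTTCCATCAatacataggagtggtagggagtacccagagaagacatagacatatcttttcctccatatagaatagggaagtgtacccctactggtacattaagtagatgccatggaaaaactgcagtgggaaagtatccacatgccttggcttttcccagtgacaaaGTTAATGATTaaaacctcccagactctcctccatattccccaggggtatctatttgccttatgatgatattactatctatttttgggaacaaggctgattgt
Rbp4 upstream start, chr19:38125272-38125571: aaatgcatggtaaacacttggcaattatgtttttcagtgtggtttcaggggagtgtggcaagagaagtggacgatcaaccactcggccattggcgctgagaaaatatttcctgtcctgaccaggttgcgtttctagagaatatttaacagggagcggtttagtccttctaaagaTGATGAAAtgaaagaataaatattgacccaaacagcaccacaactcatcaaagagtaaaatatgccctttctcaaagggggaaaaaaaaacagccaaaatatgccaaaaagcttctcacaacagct
Rbp4 downstream start, chr19:38124762-38125061: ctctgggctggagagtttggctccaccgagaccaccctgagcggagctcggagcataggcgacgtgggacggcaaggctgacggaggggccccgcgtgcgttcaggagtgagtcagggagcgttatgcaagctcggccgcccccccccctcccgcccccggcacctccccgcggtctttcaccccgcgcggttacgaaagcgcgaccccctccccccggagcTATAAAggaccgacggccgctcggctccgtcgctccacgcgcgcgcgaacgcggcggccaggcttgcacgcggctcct
Both strands were searched for 4 motifs. The CEBP-ATF response element TGATGNAA, a site type that ATF4 and CEBP proteins can share, matched once in the Gc promoter (TTCCATCA, the reverse complement, starting 218 bases before the start site) and once in the upstream Rbp4 promoter (TGATGAAA, 76 bases before it). Of 32851 RefSeq promoters of this length, 3.97% hold such a match. The Gc promoter also holds the HNF1 motif (found in 0.399% of promoters) at 52 bases before the start, and the downstream Rbp4 promoter a TATA box, TATAAA (13.6%), at 28 bases. The homeodomain core TAATTA (5.29%) matched in none of the printed promoters. These are matches of letters and no measure of binding.

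Each gene had its highest level in a different class. Rbp4 was highest in delta cells, the somatostatin cells, with 3266, 3593, 2830 and 4795 CPM. Alpha cells followed with 848, 808, 722 and 1001 CPM, and delta was 3.85 to 4.79 times alpha within each pool. PP cells had 334, 150, 349 and 972 CPM, below alpha cells in all 4 pools, with a ratio of alpha to PP from 1.03 to 5.37. The PP range overlapped the alpha range, and beta cells were lowest of the 4 classes in every pool.

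Ttr (chr18:20665280-20674321, plus strand) was highest in alpha cells, the glucagon cells, with 19122, 18238, 16174 and 15493 CPM. PP cells had 1599, 2224, 2475 and 1742 CPM and beta cells 1377, 1110, 771 and 909 CPM. In observed levels PP was above beta in each pool, by 1.16 to 3.21 times, and alpha above PP by 6.54 to 12.0 times. RNA carried from other classes, estimated as below, came to 31.8%, 11.1%, 7.99% and 7.35% of the PP level. In beta cells it came to 2.63% to 4.87%. The PP to beta ratio was lowest in mutant 1, where the estimate was 509 of 1599 CPM. Whether PP exceeds beta there without carried RNA was not tested. Delta cells had 161, 59.0, 66.6 and 75.2 CPM, from 45, 24, 16 and 15 UMIs, so the class highest for Rbp4 was lowest for Ttr.

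Gc was highest in PP cells, with 911, 616, 527 and 640 CPM. Alpha cells had 385, 378, 423 and 383 CPM and delta cells 308, 330, 237 and 306 CPM. The order PP, alpha, delta, beta held in all 4 pools. PP exceeded alpha by 1.25 to 2.37 times and alpha exceeded delta by 1.15 to 1.78 times, and none of these 3 ranges overlapped another.

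**Figure D1:**
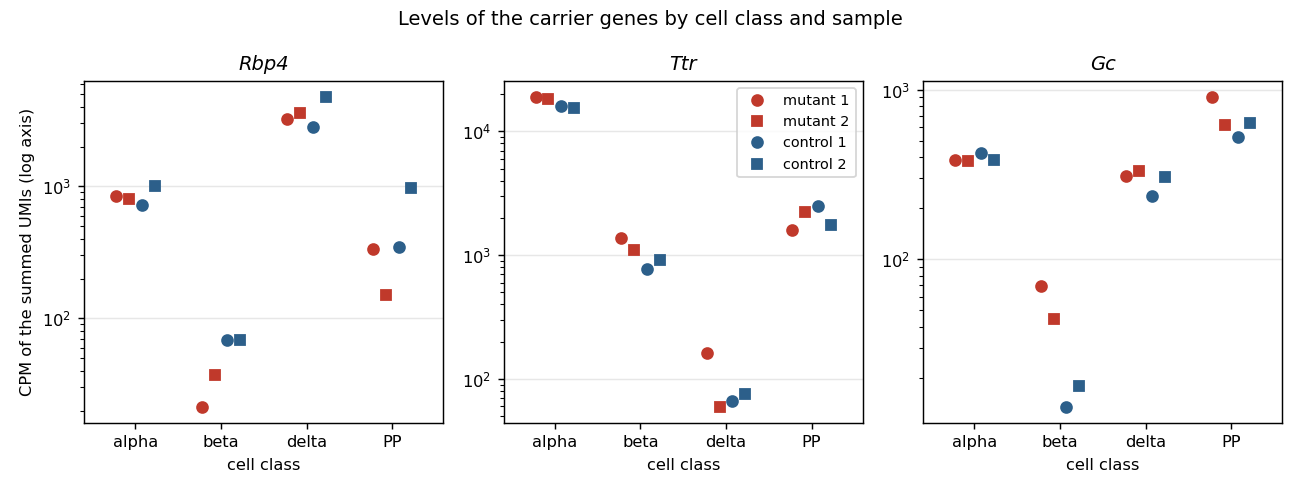
CPM of Rbp4, Ttr and Gc (log axis) in alpha, beta, delta and PP cells, 1 point per pool. Rbp4 peaks in delta cells (2830 to 4795 CPM), Ttr in alpha cells (15493 to 19122) and Gc in PP cells (527 to 911).

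Endothelial and macrophage cells served as the check on RNA that droplets pick up from other cells. Over all pools they held 1 Rbp4 UMI and 1 Gc UMI among 566870 UMIs. Ttr had 25 UMIs there, 44.1 CPM, and per pool 54.3, 41.5, 30.4 and 40.6 CPM. Delta cell Ttr, at 59.0 to 161 CPM, stood above the value of the same pool in each case, but far below the other endocrine classes. Carried alpha RNA alone, estimated from the Gcg UMIs in delta cells and the Ttr to Gcg ratio in alpha cells, came to 165, 34.4, 60.7 and 38.8 CPM of Ttr in delta cells. In mutant 1 this estimate is as large as the level observed. With RNA of PP and beta cells added in the same way, the estimate was 236 to 361 CPM, or 224% to 529% of the observed level, so it exceeded the delta cell Ttr in all 4 pools and gives no usable share there. It takes every Ppy UMI in delta cells as carried. Endothelial and macrophage cells also held hormone RNA of the endocrine cells, with Gcg at 467, 512, 380 and 354 CPM beside 474, 391, 382 and 624 CPM in beta cells.

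With every cell thinned to 2000 UMIs, the share of cells with a UMI was highest in the same class as the CPM, in every pool for Rbp4 and Ttr and in 3 of 4 for Gc (in mutant 2 only 4 of 10 PP cells had a Gc UMI). Rbp4 was seen in 97.5% to 100% of delta cells, 66.7% to 78.7% of alpha cells and 3.31% to 10.3% of beta cells. Ttr was seen in 100% of alpha cells of all 4 pools and in 12.3% to 17.4% of delta cells. The latter lies within the range of endothelial cells (0% to 18.2%) and macrophages (0% to 16.7%) at the same depth, which rests on 4 to 24 cells per pool, and cannot be told from background in these shares. Gc was seen in 40.0% to 81.8% of PP cells, 48.1% to 53.7% of alpha cells and 27.5% to 47.7% of delta cells. No endothelial cell had an Rbp4 or Gc UMI, but with 8 to 24 cells per pool this allows shares of 12.5% to 37.5%. At that depth the Gc share of beta cells, 1.63% to 7.02%, cannot be set against background. Cells under 2000 UMIs were left out of these shares, 39 to 94 beta cells, 15 to 57 alpha cells, 21 to 29 delta cells, 3 to 10 PP cells, 12 to 15 endothelial cells and 3 to 12 macrophages per pool.

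**Figure D2:**
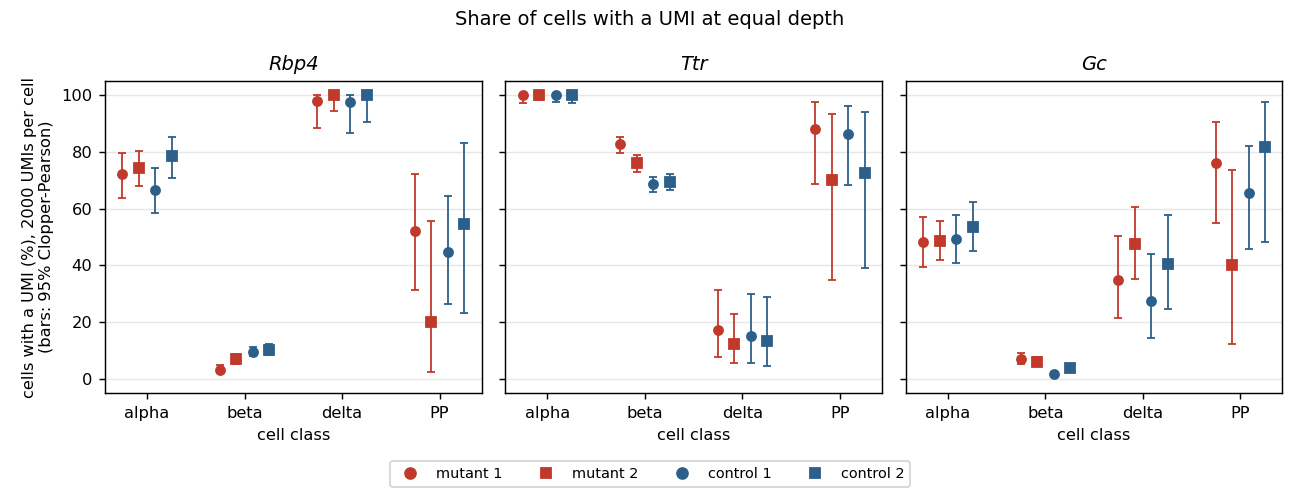
Share of cells with at least 1 UMI of each gene, in percent, after thinning to 2000 UMIs, with 95% Clopper-Pearson intervals per pool (counting error only). Nearly all delta cells show Rbp4 and all alpha cells Ttr, while the PP intervals, from 10 to 29 cells per pool, are wide.

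Within a class the genes were spread in different ways. Ttr in thinned alpha cells had a median of 26.5 to 30 UMIs per cell and a variance 11.7 to 17.7 times its mean. Rbp4 in delta cells had a median of 5 to 9 UMIs and a variance 2.01 to 2.83 times its mean. In beta cells the median Rbp4 and Gc count was 0 in all pools and the median Ttr count 1 or 2. After thinning, the highest beta cell of each pool held 3 to 8 Rbp4 UMIs, 9 to 16 Ttr UMIs and 2 or 3 Gc UMIs.

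In beta cells, the contrast the genes were chosen from, Rbp4 stood at 21.2, 37.5, 68.1 and 68.4 CPM, from 194, 355, 778 and 822 UMIs. Both mutants were below both controls, and mutant 2 was nearer the controls than mutant 1. Mutant 2 also kept more Atf4, but with a single mutant pool at each level, pool and Atf4 level cannot be told apart. This holds for all 3 genes. The fitted log2 difference of mutant over control was -1.33 ± 0.242 (SE, n = 2 pools per group).
Gc was at 69.7, 44.3, 13.4 and 17.9 CPM, from 638, 420, 153 and 215 UMIs. Both mutants were above both controls, and mutant 2 again lay between mutant 1 and the controls. The fitted log2 difference was 1.73 ± 0.203 (SE, n = 2 per group).
Ttr was at 1377, 1110, 771 and 909 CPM, the same order with a smaller gap, and the fitted log2 difference was 0.44 ± 0.121 (SE, n = 2 per group). The groups did not overlap for any of the 3 genes, as for 45.8% of the 13504 genes tested in beta cells. An adjusted p under 0.05 was reached by 0.696% of those genes. Nothing is read from these counts or from the SEs above for the 3 genes, since the contrast chose them.

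How far these beta values follow RNA carried from other types was estimated per pool. All Gcg, Sst and Ppy UMIs in beta cells were taken as carried, and each was given the ratio of the gene to that hormone in alpha, delta or PP cells. In delta cells 1000 Sst UMIs went with 14.4 to 26.0 Rbp4 UMIs, in alpha cells 1000 Gcg UMIs with 67.2 to 81.6 Ttr UMIs, and in PP cells 1000 Ppy UMIs with 3.66 to 5.83 Gc UMIs.
For Rbp4 the estimate was 5.43, 6.49, 5.86 and 18.0 CPM, or 25.6%, 17.3%, 8.60% and 26.3% of the observed level. For Ttr it was 2.97%, 2.63%, 3.97% and 4.87%, and for Gc 3.33%, 3.10%, 13.6% and 15.2%. By this arithmetic carried RNA of these sources covered at most 26.3% of any of the 12 beta values. The estimate for Rbp4 was largest in control 2, where beta cells also held the most Sst (540 CPM, against 197, 293 and 288 in the other pools). With the estimate subtracted, the log2 ratio of group means was -1.27 for Rbp4, 0.59 for Ttr and 2.04 for Gc, against -1.22, 0.57 and 1.87 before.

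**Figure D3:**
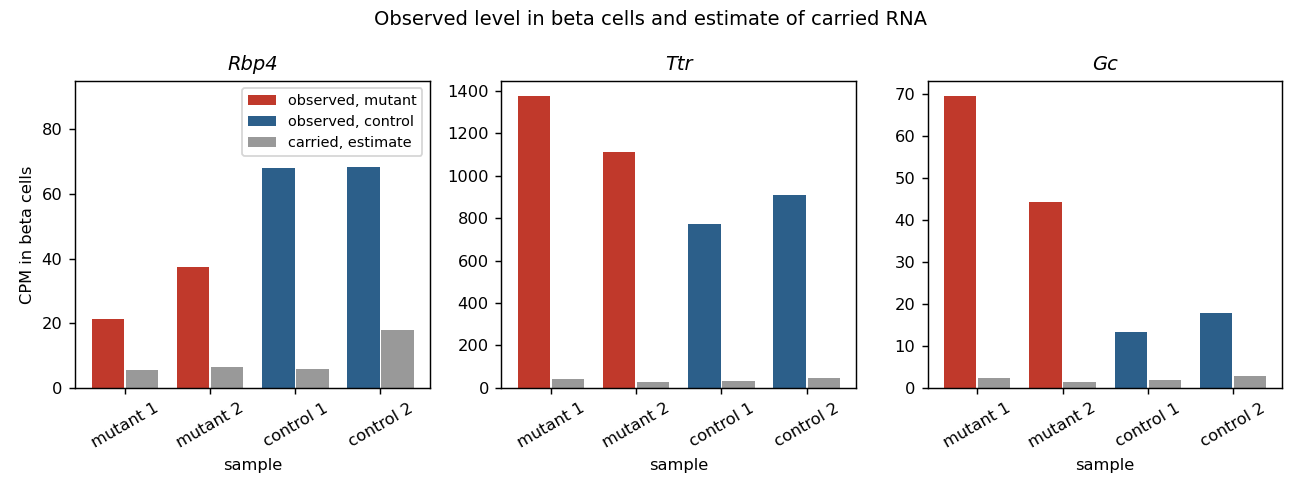
Observed CPM of each gene in beta cells (coloured bars) and the estimate of RNA carried from alpha, delta and PP cells (grey bars) in each pool. The grey bars reach 8.60% to 26.3% of the coloured ones for Rbp4, 2.63% to 4.87% for Ttr and 3.10% to 15.2% for Gc.

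The summed delta markers in beta cells were 564, 661, 671 and 765 CPM, and the PP markers 583, 463, 689 and 682 CPM, both lower in the mutants, as Rbp4 was. All 6 delta markers were detected, and without Sst they came to 366, 368, 383 and 225 CPM, where the groups overlapped. The alpha markers were 1752, 1642, 1514 and 1751 CPM. Among markers of types other than endocrine cells, those of duct were higher in both mutants, at 41.1, 15.9, 2.54 and 6.57 CPM. Those of acinar cells were lower in both mutants, at 22.7, 32.2, 89.3 and 159 CPM, and so were those of macrophages, at 83.1, 108, 141 and 136 CPM. All 5 duct, 8 acinar and 9 macrophage markers were detected. The groups overlapped for the endothelial markers, at 79.9, 73.4, 38.7 and 136 CPM. They also overlapped for the stellate (7.75, 17.3, 4.29 and 18.6 CPM) and hepatocyte markers (2.62, 2.43, 2.54 and 2.08 CPM). Groups stood apart for 45.8% of all genes tested in beta cells. The duct markers also came to 249 to 1165 CPM in PP cells. The part of these markers in the beta cell differences was not tested beyond the estimate above.

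Beta cells with no Gcg, Sst or Ppy UMI at all gave a smaller, shallower set of 64, 68, 148 and 116 cells with median depths of 2844 to 3561 UMIs. Gc in them was 57.0, 11.8, 9.46 and 8.71 CPM, from 13, 3, 5 and 4 UMIs. Mutant 1 stayed apart, with an exact Poisson interval of 30.4 to 97.6 CPM, while that of mutant 2 (2.44 to 34.6) covered both controls. Rbp4 was 21.9, 47.3, 54.8 and 45.8 CPM, from 5, 12, 29 and 21 UMIs, so the groups overlapped, and the log2 ratio of means was -0.54 against -1.22 in all beta cells. Ttr was 886, 734, 635 and 691 CPM with both mutants above both controls and a log2 ratio of 0.29.
In the larger set with 1 to 5 such UMIs (373, 449, 699 and 505 cells) the groups stood apart for each gene. Rbp4 was 15.8, 30.4, 61.2 and 64.1 CPM, Ttr 1059, 898, 692 and 714 CPM, and Gc 52.4, 28.0, 10.6 and 12.6 CPM. The same sets were also read in cells of 2000 to 8000 UMIs alone, a limit chosen after seeing the data. Rbp4 was then 28.8, 47.4, 37.9 and 45.2 CPM in cells with no such UMI, where the groups overlapped (log2 ratio of means -0.13). It was 15.0, 37.3, 67.7 and 65.3 CPM in those with 1 to 5, where the groups stood apart (-1.35). It was 45.9, 180, 146 and 122 CPM in those with over 5, where they overlapped again (-0.25). Ttr and Gc had both mutants above both controls in each of these 3 sets, with log2 ratios of 0.27, 0.56 and 0.50 for Ttr and 3.21, 1.84 and 0.65 for Gc. In the set with no such UMI the Gc values rest on 10, 2, 2 and 1 UMIs.
The control level of Gc in all beta cells, 13.4 and 17.9 CPM, compares with 1.76 CPM, from 1 UMI, in the endothelial and macrophage cells of all pools together, where 3 UMIs would be 5.29 CPM. That UMI was in control 2. In control 1 and control 2 alone 3 UMIs would be 45.5 and 17.4 CPM. Within their own pools the control Gc levels therefore cannot be told from background.

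At each of 3 depths both mutants were above both controls for Ttr and Gc. In beta cells under 4000 UMIs, Gc was 40.9, 33.0, 12.0 and 16.9 CPM, and in those over 8000 UMIs 73.5, 48.7, 13.6 and 19.0 CPM. Rbp4 was 15.1, 40.4, 62.8 and 85.8 CPM in the shallow cells and 21.3, 32.5, 65.5 and 67.2 CPM in the deep ones. Only between 4000 and 8000 UMIs did Rbp4 overlap, where mutant 2 had 69.5 CPM against 82.9 and 66.8 in the controls. Beta cells were deeper in the mutants, with medians of 8820 and 8697 UMIs against 6305 and 7583. Thinned to 2000 UMIs, 3.31%, 6.91%, 9.54% and 10.3% of beta cells had an Rbp4 UMI, 82.6%, 76.0%, 68.6% and 69.5% a Ttr UMI, and 7.02%, 5.92%, 1.63% and 4.00% a Gc UMI.

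Mutant 2 held cells with and without Atf4 UMIs in the same library, which allows a comparison with no difference of pool. The pool joined islets of several mice, so mouse and Atf4 state cannot be told apart in it. Of its beta cells over 8000 UMIs, 233 had no Atf4 UMI, 86 had 1 or 2 and 136 had 3 or more. Rbp4 was 24.3 CPM (exact Poisson 95% interval 19.7 to 29.7) in the first set, 42.2 (31.4 to 55.5) in the second and 40.4 (33.1 to 48.8) in the third. Gc was 62.8 (55.2 to 71.1), 29.8 (20.9 to 41.2) and 36.2 (29.3 to 44.2) CPM in the same order. Ttr was 1279 (1244 to 1315), 908 (855 to 964) and 1151 (1110 to 1193) CPM, highest in the cells without Atf4 UMIs and lowest in those with 1 or 2. The median depths of the 3 sets were 15173, 12239 and 18021 UMIs. Sst in them was 217, 446 and 285 CPM, and the part of carried RNA in these differences was not tested.
For Rbp4 and Gc the cells without Atf4 UMIs were near mutant 1, whose 388 such cells had 20.5 CPM of Rbp4 and 74.1 CPM of Gc. For Ttr they were not, with 1279 CPM against 1454 (1426 to 1482) in mutant 1 and intervals apart. Mutant 2 cells with 3 or more lay between mutant 1 and the controls, which had 67.2 and 68.7 CPM of Rbp4 and 14.0 and 19.2 CPM of Gc in cells with 3 or more. Control cells with 1 or 2 had 53.5 and 51.9 CPM of Rbp4 and 12.9 and 17.3 CPM of Gc. In mutant 1, 12 deep cells had 1 or 2 Atf4 UMIs. They had 34.6 CPM of Rbp4 (16.6 to 63.6), 69.2 of Gc (42.3 to 107) and 1536 of Ttr (1396 to 1686). Each interval covered the level of mutant 1 cells without Atf4 UMIs. The few deep control cells with no Atf4 UMI, 13 and 20 of them, had 60.0 and 86.1 CPM of Rbp4, from 8 and 19 UMIs. Their Gc was 0 and 18.1 CPM, from 0 and 4 UMIs, with intervals of 0 to 27.7 and 4.94 to 46.4 CPM. Sst in these cells was 165 and 1138 CPM, and the part of carried RNA was not tested. These are sums over cells of a single library per value, and the intervals cover counting error only.

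**Figure D4:**
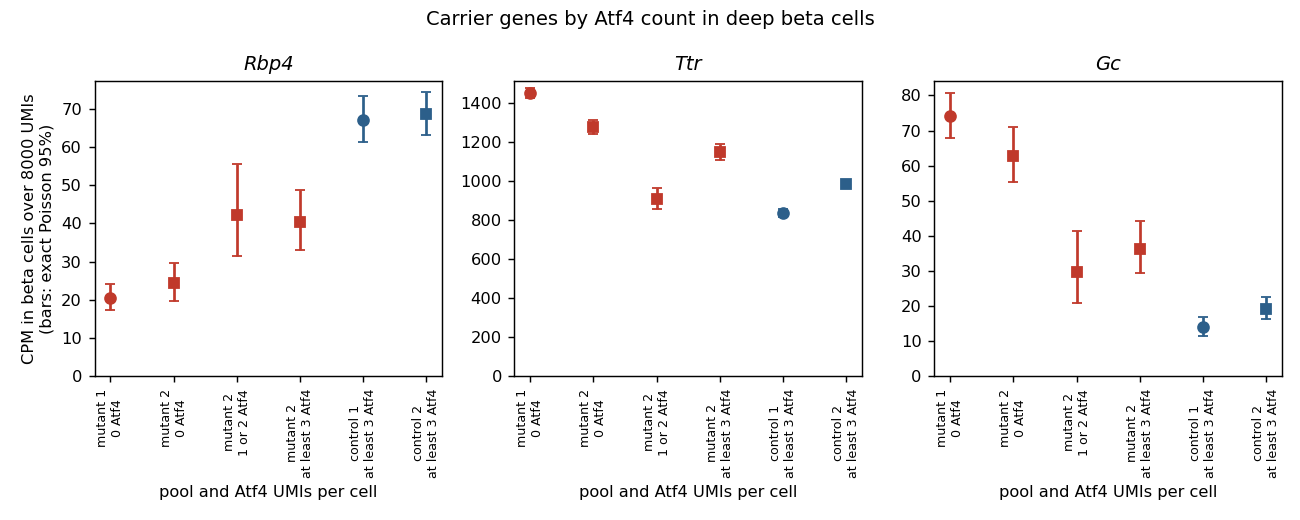
CPM of each gene in beta cells over 8000 UMIs, by pool and by Atf4 UMIs per cell, with exact Poisson 95% intervals. Cells of mutant 2 without Atf4 UMIs lie by those of mutant 1 for Rbp4 (24.3 and 20.5 CPM) and Gc (62.8 and 74.1), apart from its cells with Atf4 UMIs. For Ttr the intervals of these 2 sets are apart (1279 and 1454 CPM).

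In alpha cells, which do not express Ins1 as their hormone, Atf4 was 234, 258, 384 and 315 CPM (log2 difference -0.52 ± 0.159, adjusted p = 0.305 by edgeR). None of the 3 carrier genes passed the test there, where 0.222% of the 8991 genes tested did (quasi-likelihood F test of edgeR, p under 0.05 after Benjamini-Hochberg adjustment). The Rbp4 log2 difference was -0.07 ± 0.145 (SE, adjusted p = 0.932 by edgeR) and that of Gc -0.09 ± 0.141 (adjusted p = 0.891 by edgeR). The 95% interval of Gc ran from -0.39 to 0.21 and that of Rbp4 from -0.37 to 0.24. Ttr had both mutants above both controls, as 39.7% of tested genes had non-overlapping groups, with a log2 difference of 0.23 ± 0.0918 (95% interval 0.03 to 0.42, adjusted p = 0.436 by edgeR). Alpha cells of the mutants also held more endothelial RNA: the 8 endothelial markers summed to 204, 188, 58.5 and 43.7 CPM, and all 8 were detected. The part of this in the alpha values was not tested.

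In delta cells, none of the 3 genes passed either, where 0.0215% of 4644 genes did. Rbp4, at its highest here, had a log2 difference of -0.18 ± 0.198 (95% interval -0.60 to 0.25, adjusted p = 0.888 by edgeR). For Ttr it was 0.53 ± 0.439 (adjusted p = 0.825), and for Gc 0.21 ± 0.207 (adjusted p = 0.870). The only gene called in delta cells was Ins1, lower in the mutants by 1.36 on the log2 scale (adjusted p = 0.00264 by edgeR). Mean Ins1 was also lower in mutant than control beta cells, at 112430 and 142590 CPM. The same held in alpha (2314 and 3866), endothelial (1627 and 3199) and macrophage cells (2217 and 4476 CPM). The part of carried beta cell RNA in the Ins1 calls of delta and PP cells was not tested.

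In PP cells, with 14 to 38 cells per pool, none passed, where 0.0859% of 2328 genes did. Rbp4 had both mutants below both controls, as 33.6% of tested genes had non-overlapping groups, and a log2 difference of -1.14 ± 0.402 (unadjusted p = 0.0104, adjusted p = 0.690 by edgeR). Without control 1 the log2 difference was -1.79 and the edgeR adjusted p 8.79e-05, with control 2 as the only control and its spread taken to be that of the mutants. Without control 2 the log2 difference was -0.38, and without any of the other pools the adjusted p was 0.485 to 0.999 by edgeR. Sst in PP cells was 503, 376, 3253 and 5595 CPM, one of the 2 genes called there beside Ins1, and the delta markers without Sst were 635, 466, 544 and 450 CPM, with Ghsr and Crhr2 at 0. By the Gcg, Sst and insulin UMIs in PP cells, carried RNA came to 8.99% to 16.4% of the Rbp4 level there. Ttr differed by -0.13 ± 0.230 (adjusted p = 0.998) and Gc by 0.50 ± 0.242 (95% interval -0.01 to 1.01, adjusted p = 0.923 by edgeR). Whether the differences in beta cells are unlike those in the other classes was not tested, since the beta values chose the genes.

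**Figure D5:**
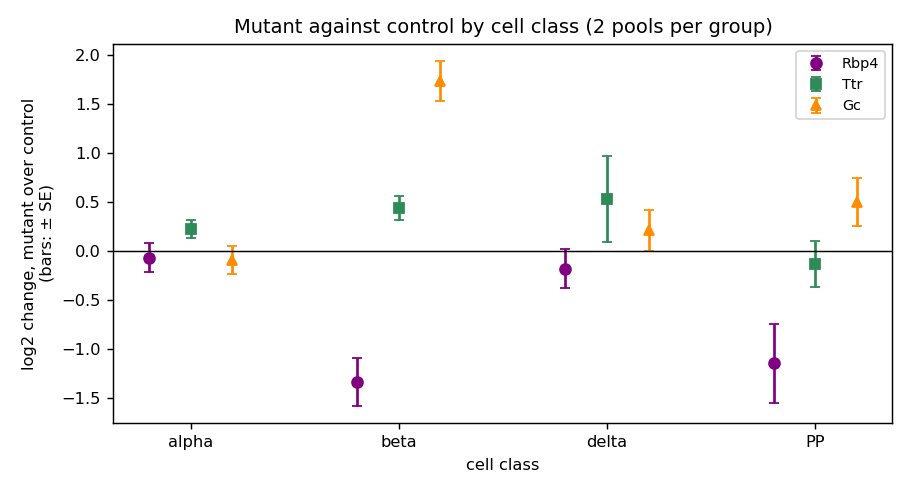
Fitted log2 difference, mutant over control, of each gene in the 4 classes, with the SE as bar (2 pools per group). In beta cells the values are -1.33, 0.44 and 1.73 for Rbp4, Ttr and Gc, and in the other classes none of the genes passed the test. The beta bars are no test, since that contrast chose the genes.

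The genes with the most similar pattern over the 16 sums (4 classes by 4 pools) were ranked by Pearson's r of log2(CPM + 1) among 6695 genes. For Rbp4 these were Arg1 (r = 0.98), Vps37d, Dgkb, Rps6 and Anxa6. Arg1, an arginase, had mean levels of 760 CPM in delta, 99.9 in alpha, 35.8 in PP and 4.11 in beta cells. For Ttr they were Lpl (r = 0.96), Igsf21, Slc7a2, Rnf130 and Dock11. Lpl, lipoprotein lipase, had 864 CPM in alpha and 18.1 in delta cells. For Gc they were Etv1 (r = 0.97), Serpine2, Celf4, 5330417C22Rik and Nefm. Etv1, a transcription factor, had 463, 368 and 292 CPM in PP, alpha and delta cells and 11.9 in beta cells. Among themselves the 3 genes were less alike, with r of 0.62 for Rbp4 and Gc, 0.19 for Ttr and Gc and -0.30 for Rbp4 and Ttr. The 16 sums share libraries and classes, and r is a description.

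The partners of these carriers were looked at as lists. Of 30 retinoid genes 15 could be tested in beta cells, 1 rose and none fell (of all genes tested 0.474% rose), with a median log2 difference of -0.16 beside 0.01 for all genes tested. The one was Aldh1a3, a retinaldehyde dehydrogenase that makes retinoic acid, with TMM-scaled levels of 4.97, 4.50, 0.189 and 0.337 CPM (log2 difference 4.09 ± 0.433, adjusted p = 0.00610 by edgeR). Both mutants were above both controls, at a low level. Stra6, a receptor of RBP4, had 6 UMIs in all beta cells and none in alpha, delta or PP cells. Stra6l of the same list had 49 UMIs in beta, 9 in alpha, 3 in delta and 2 in PP cells. Adh1, an alcohol dehydrogenase that can oxidize retinol, had 98.5 to 111 CPM in beta cells.

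Of 17 thyroid hormone genes 12 were tested in beta cells and none passed (median log2 difference 0.24). Slc16a10, an amino acid transporter that also moves thyroid hormones, had 251 to 330 CPM in beta and 656 to 855 CPM in alpha cells, and Dio1, a deiodinase, 85.1 to 106 and 10.5 to 21.2 CPM. Of the vitamin D list (14 genes, 5 tested in beta cells) none passed, with a median log2 difference of 0.09. Vdr, the vitamin D receptor, had 132 to 208 CPM in beta and 104 to 145 CPM in alpha cells, whereas Lrp2, which encodes the megalin receptor that takes up the Gc protein in kidney, was at or below 1.16 CPM in every class. In alpha, delta and PP cells the retinoid, thyroid and vitamin D lists had 0 to 10 tested genes and none passed in any of them.

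Of 29 other plasma proteins made mainly by liver, 8 were tested in beta cells, 2 in delta and 1 in PP cells, and none passed. In alpha cells, where 0.156% of all genes tested rose, 1 of 6 did, Apoe, an apolipoprotein that macrophages also make, with TMM-scaled levels of 42.5, 48.4, 12.0 and 15.4 CPM (log2 difference 1.72 ± 0.308, adjusted p = 0.0356 by edgeR). The macrophage markers in alpha cells summed to 74.7, 131, 118 and 113 CPM, and their part was not tested. Alb, albumin, had 5 UMIs in alpha, 11 in beta and none in delta and PP cells, and the 8 hepatocyte markers summed to at most 29.5 CPM in any class.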

How the data were processed

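Per the labels' protocols, islets were pooled, cells were encapsulated by inDrops, and 2 mutant and 2 control libraries were sequenced. The authors deposited UMI counts per gene symbol and barcode; mm10 and Seurat are named in the submitters' processing notes, and alignment settings are not given in the sources used here. Values were whole numbers, and the highest of each pool (4078 to 4093, of the insulin gene Ins2) lay close to 4096, so a ceiling on hormone counts cannot be told apart from their true level. No doublet caller was run. Insulin cells with another hormone at 1% or more fell in no class, but alpha, delta and PP cells may hold insulin below their own hormone, and doublets with other types were not removed. Sums of UMIs per pool and class went through filterByExpr and TMM scaling. The test was the quasi-likelihood F test of edgeR 4.0.16 in R 4.3.3, with p-values adjusted by Benjamini-Hochberg over every gene tested and a threshold of 0.05. Tests were checked on simulated data. DESeq2 1.42.0 was an alternative; sums were made in Python 3.11.15. The p-values rest on the spread of 2 pools per group and not of mice. An exact test of 2 against 2 cannot go below 0.333, so no permutation p is given for the shares. Replicate libraries differed by more than sampling noise (chi-square per degree of freedom 14.8 in mutants and 17.7 in controls).

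The genes, lists and tests were chosen with earlier results of these data known. Named beside the 3 genes were the 5 most alike of each, among genes with a mean of at least 20 CPM, up to 4 members per list that passed a test, the hormones and Atf4. Other genes were named after their values were seen. The levels by depth, by Atf4 UMIs and in barcodes of low quality were descriptions added after the data were seen. Intervals cover counting error only, at 95%. Sequences are RefSeq's, and no Ttr sequence is printed.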

Additional observations from a re-analysis of the deposited data

How the results depend on the processing

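The direction of the difference for the 3 genes in beta cells held in all 39 alternatives run. These refit the contrast that chose the genes, so a held direction is no independent support. Leaving out 1 pool moved the log2 difference of Rbp4 between -1.88 and -0.94, of Ttr between 0.33 and 0.53 and of Gc between 1.43 and 1.97. Without mutant 2 Rbp4 stood at -1.88. The other alternatives, hormone genes left out among them, gave -1.41 to -1.22, 0.41 to 0.57 and 1.71 to 1.88. In the other classes the call changed only for Ttr in alpha cells with no filter on low counts (0.24, edgeR adjusted p = 0.0365, with 0.0951 to 0.766 in its other alternatives) and for Rbp4 in PP cells without control 1. Directions turned, with no call, for Ttr in delta cells under stricter hormone limits (-0.19), and where 1 pool was left out for Gc in alpha cells (-0.19 to 0.0073), Rbp4 in alpha cells (-0.26 to 0.16), Ttr in delta cells (-0.27 to 1.15), Rbp4 in delta cells (-0.51 to 0.23) and Ttr in PP cells (-0.38 to 0.18). Rbp4 in PP cells ran from -2.01 to -0.38 when a pool was left out.

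Counts of called genes moved more, and the cause was not tested. In alpha cells (20) they were 32 with library totals, 103 with no filter, 43 with the replicate block, 46 with the stricter cell filter (1000 genes, 10% mitochondrial) and 50 to 100 without 1 pool. In beta cells (94) they were 235 by DESeq2, 168 with library totals, 279 with no filter, 179 with the replicate block, 62 with the stricter cell filter, 62 without the deepest cells (above the 95th percentile) and 120 to 520 without 1 pool. In delta cells (1) they were 2 with library totals, 0 without the hormone genes, 35 with no filter, 11 with the replicate block, 3 under stricter hormone limits and 17 to 34 without 1 pool. In PP cells (2) they were 0 without the hormone genes and under stricter hormone limits, 11 with no filter, 1 without the deepest cells and 2 to 18 without 1 pool. Leaving out barcodes found in more than 1 library, an alternative chosen after seeing the data, left 1 in PP cells and moved no direction or call of the 3 genes.

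The labels do not say whether same-numbered pools are paired. Their deviations correlated at -0.02 in alpha, -0.11 in beta, -0.02 in delta and 0.10 in PP cells, and the pairing was not used. With the crossed pairing, added after seeing the data, beta cells gave 151 calls. The replicate block changed no call of the 3 genes.

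Under stricter hormone limits the Ttr estimate of carried RNA was 2.07% of the beta level. The difference in the share of beta cells with a UMI depended on depth. Thinned to 4000 UMIs it was -8.78 percentage points for Rbp4, 4.20 for Ttr and 8.68 for Gc, and unthinned -13.5, 5.08 and 15.4, against -4.81, 10.2 and 3.65 at 2000 UMIs. Counts limit all 3 genes in PP cells, and Rbp4 and Gc in beta cells with no other hormone UMI.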

Other observations

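Barcodes under 500 genes, which entered no class, held 320, 304, 259 and 403 CPM of Rbp4, 2235, 2622, 1624 and 1503 CPM of Ttr and 103, 83.0, 72.3 and 36.6 CPM of Gc in mutant 1, mutant 2, control 1 and control 2. For all 3 genes these exceed the beta cell values of the same pool. The cells in no class, most of them with insulin and another hormone, held 721, 794, 665 and 844 CPM of Rbp4, 3869, 4326, 2675 and 2722 CPM of Ttr and 195, 166, 132 and 109 CPM of Gc. No comparison between groups was made in either set.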
